A study of Mus musculus with 4 samples.

Results

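The block described here is a stretch of mouse chromosome 14 whose genes were, as a group, lower in E14 embryonic stem cells lacking Zfp57 than in the wild-type line. Its members are the listed genes with a start from 41 Mb to under 77 Mb in the mm9 build, a span of 36 Mb, after 17 genes were set aside by name or gene family. This gave 538 of the 26130 listed genes. The interval was chosen from the E14 knockout and wild-type values themselves, so every E14 difference below is a description of how the members were picked and supports nothing further. The JB1 values were not used to choose the members.

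The study asked how mRNA levels differ between Zfp57-/- and wild-type mouse embryonic stem cells. ZFP57 is a KRAB zinc finger protein that binds a methylated TGCCGC motif and is known for keeping DNA methylation at imprinting control regions. RNA was sequenced from 4 cultures, 1 per group. The groups were E14 wild type and E14 Zfp57-/-, both of strain 129P2/OlaHsd, and JB1 wild type and JB1 Zfp57-/-, both of strain JF1/B6. E14 and JB1 are embryonic stem cell lines, and all 4 cultures grew on gelatin without feeder cells in serum with leukemia inhibitory factor. The labels give no clone number, passage or replicate for any line, and how the Zfp57 alleles were made is not given in the sources used here. With 1 library per group there was no test of any difference between groups, and the intervals below cover counting error only.

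A block of neighbouring genes is not a pathway. Genes that lie side by side on a chromosome usually have separate promoters and unrelated roles, and their RNA levels depend on transcription and RNA decay. No DNA data were available here, so the copy number of the interval was not examined. When the RNA of many unrelated neighbours differs by a like ratio between cell lines, single genes can follow that ratio, exceed it or depart from it, and the members are described here in those terms. The members range from housekeeping genes of RNA processing, proteolysis and membrane traffic to clusters of olfactory receptors, secreted ribonucleases, granzymes and mast cell proteases that embryonic stem cells are not known to use.

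Promoter sequences of a few members are given as examples, from members near the shared E14 ratio and members away from it. No test compared these groups. The sequences printed here are the 250 bases before the annotated start of 5 members, from RefSeq on GRCm38.p6, 5′ to 3′ on the gene's own strand, with each CpG in capitals. Psmc6 had an E14 ratio of 0.654 (95% counting interval 0.629 to 0.681), near the members' median of 0.602, which its interval did not hold. Hnrnpc and Lgals3 hardly differed between the E14 libraries, and Nynrin and Shisa2 differed by more than the shared ratio.
Psmc6 (chr14:45329574-45329823, plus strand): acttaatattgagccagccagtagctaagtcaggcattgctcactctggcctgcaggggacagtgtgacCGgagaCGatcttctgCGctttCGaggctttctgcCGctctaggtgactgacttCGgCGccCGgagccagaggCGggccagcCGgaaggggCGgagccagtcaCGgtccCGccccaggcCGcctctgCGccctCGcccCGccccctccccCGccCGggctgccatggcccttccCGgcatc
Hnrnpc (chr14:52104022-52104271, minus strand): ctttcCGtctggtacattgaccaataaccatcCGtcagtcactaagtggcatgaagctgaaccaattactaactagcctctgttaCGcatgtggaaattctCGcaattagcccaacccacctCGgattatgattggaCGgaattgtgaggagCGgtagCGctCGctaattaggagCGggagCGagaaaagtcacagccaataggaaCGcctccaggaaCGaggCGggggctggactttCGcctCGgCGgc
Lgals3 (chr14:47373610-47373859, plus strand): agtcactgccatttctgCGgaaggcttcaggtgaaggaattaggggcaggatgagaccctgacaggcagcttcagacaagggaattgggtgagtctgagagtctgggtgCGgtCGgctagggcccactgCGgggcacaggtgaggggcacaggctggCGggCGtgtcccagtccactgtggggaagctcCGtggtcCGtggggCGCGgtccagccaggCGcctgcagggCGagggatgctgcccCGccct
Nynrin (chr14:55853865-55854114, plus strand): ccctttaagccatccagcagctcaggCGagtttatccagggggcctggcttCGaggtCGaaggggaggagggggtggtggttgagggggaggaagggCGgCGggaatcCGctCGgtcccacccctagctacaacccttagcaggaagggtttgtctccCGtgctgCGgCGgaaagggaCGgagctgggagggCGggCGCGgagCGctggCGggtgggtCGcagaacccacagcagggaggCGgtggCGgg
Shisa2 (chr14:59625031-59625280, plus strand): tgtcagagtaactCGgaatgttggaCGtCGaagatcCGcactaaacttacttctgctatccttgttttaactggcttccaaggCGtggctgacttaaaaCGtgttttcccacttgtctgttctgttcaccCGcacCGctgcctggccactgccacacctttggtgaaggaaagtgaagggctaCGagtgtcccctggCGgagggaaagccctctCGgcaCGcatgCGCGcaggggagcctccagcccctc
Psmc6 had 20 CpGs and a GC content of 68.0%, and Nynrin had 19 CpGs and 68.4%. Hnrnpc had 17 CpGs and a GC content of 52.8%, Shisa2 14 and 56.0%, and Lgals3 13 and 66.0%. All 5 exceeded the median of 6 CpGs over the 32851 promoters in the table. The motif TGCCGC, searched on both strands (reverse complement GCGGCA), was found in the Psmc6 sequence, 149 bases before the start, and not in the other 4 windows. A promoter entry was matched for 117 of the 176 members described below (66.5%), which is too few for a comparison over the set. Of these 117, 13 (11.1%) held TGCCGC, beside 8.68% of all 32851 promoters. Of the 21 members called above or below the shared shift further down, 12 had an entry and 0 held the motif. Most of the 117 lacked it too, so the match in Psmc6 does not set these groups apart. A match is a run of letters, not a bound site.

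The scaling totals behind the values ranged from 50478922 reads (E14 wild type) to 96996280 reads (JB1 knockout), and the listed genes held 53.1% and 53.7% of the total in the E14 libraries and 68.6% and 68.9% in the JB1 libraries. Zfp57 itself was 2.60-fold lower in the E14 knockout, at 51.8 RPM (reads per 1000000 reads of the library total) against 135 RPM in wild type, and 18.5-fold lower in the JB1 knockout, at 42.9 against 796 RPM. The labels do not say which exons the alleles remove, so RNA that remained does not by itself contradict them. All 6 embryonic stem cell markers examined (of 7 listed, among them Pou5f1 and Sox2) were at 1 RPM or more in every library. Their summed level was 2795, 2638, 3466 and 2974 RPM in E14 wild type, E14 knockout, JB1 wild type and JB1 knockout. The 7 fibroblast or feeder cell markers summed to 2.5, 3.10, 9.05 and 19.3 RPM in the same order. Of these, 1 was at 1 RPM or more in every library, and Col1a2, Col3a1, Postn and Twist2 were below 1 RPM everywhere. The 6 primitive endoderm markers summed to 14.2, 12.6, 26.4 and 45.5 RPM. Of these, 3 were at 1 RPM or more in every library, and Foxa2 was below 1 RPM everywhere. The 3 neuroectoderm markers examined (of 5 listed) summed to 43.2, 55.3, 20.5 and 24.1 RPM, and 2 of them were at 1 RPM or more in every library. The part of these levels in the members' values was not tested.

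Summed over all 538 members, the block gave 6484 RPM in wild-type E14 and 4132 RPM in knockout E14. The ratio was 0.637 (95% counting interval 0.634 to 0.640). In JB1 the sums were 11102 RPM in wild type and 10474 RPM in the knockout, a ratio of 0.943 (0.941 to 0.946). The 499 other genes of chromosome 14 summed to 8865 and 9036 RPM in E14 and to 10361 and 10553 RPM in JB1, with ratios of 1.02 in both lines. The members' share of all reads in listed genes was 1.22% in wild-type E14, 0.769% in knockout E14, 1.62% in wild-type JB1 and 1.52% in knockout JB1. The E14 knockout library thus had the lowest share of the 4. In cultures sequenced in bulk, fewer cells carrying an RNA and less of that RNA per cell cannot be told apart.

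Of the 538 members, 176 reached a mean of 5 RPM over the 4 libraries, 62 lay between 1 and 5 RPM, 153 had reads but a mean under 1 RPM, and 147 had no reads in any library. Differences between knockout and wild type are given for the 176 as log2((knockout RPM + 1)/(wild-type RPM + 1)), beside the same for all 9626 genes at that level. In E14 the members' median difference was -0.69, with quartiles at -0.85 and -0.48 and a range from -1.31 to 0.52, while the 9450 other genes had a median of 0.02. As a plain ratio, the median member in the E14 knockout stood at 0.602 of its wild-type level.

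Of the 176 members, 167 were lower in the E14 knockout (47.7% of all genes at that level), 115 at least 1.5-fold lower (2.38% of all genes) and 15 at least 2-fold lower (0.27% of all genes). None was at least 1.5-fold higher (2.76% of all genes) or 2-fold higher (0.758% of all genes) on that scale. These counts restate the choice of the interval. The ratio lay between 0.5 and 0.75 for 117 members (66.5%), below 0.5 for 30 and above 1 for 9. The SD of the E14 difference over members was 0.31, beside 0.29 over the other 9450 genes, so the members spread about their median no less than other genes did about theirs.

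In JB1 the same 176 members had a median difference of -0.04, with quartiles at -0.25 and 0.21 and a range from -1.20 to 1.55. The 9450 other genes had a median of -0.02. In the JB1 knockout 96 of the 176 members were lower (51.7% of all genes), 6 were at least 1.5-fold lower (5.97% of all genes) and 2 at least 2-fold lower (1.43% of all genes). At least 1.5-fold higher were 13 members (7.61% of all genes), and 2 were at least 2-fold higher (1.86% of all genes). Of the members 54.5% were lower, 3.41% at least 1.5-fold lower and 7.39% at least 1.5-fold higher. No shift of the size seen in E14 was thus seen in this line. The summed ratio in JB1 was 0.943, and the 99 members at 20 RPM or more had a JB1 median of -0.10. With TMM scaling, a trimmed-mean normalisation between libraries, 12 members in place of 6 were at least 1.5-fold lower in JB1.

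**Figure D1:**
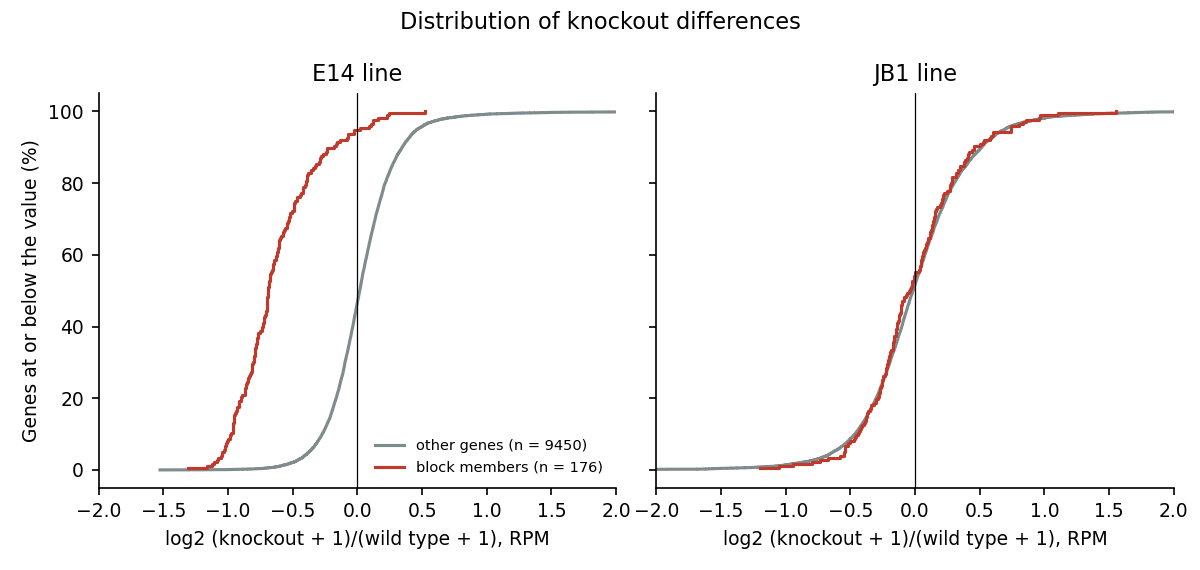
Cumulative share of genes (vertical axis, percent) at or below a given knockout minus wild-type difference (horizontal axis, log2 scale with 1 RPM added) for the 176 block members (red) and the 9450 other genes (grey) with a mean of 5 RPM or more, in E14 (left) and JB1 (right). In E14 the red curve lies to the left, with a median of -0.69 against 0.02, and in JB1 the curves overlie, with medians of -0.04 and -0.02.

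From 45 Mb on, the E14 shift ran along the whole interval, and the stretch before it held too few measured members to tell. In bins of 4 Mb the median E14 difference was 0.23 from 41 to 45 Mb, where only 3 members reached 5 RPM, and between -0.62 (53 to 57 Mb) and -0.86 (65 to 69 Mb) in the other 8 bins. These 8 medians showed no steady order along the block, at -0.66, -0.76, -0.62, -0.69, -0.69, -0.86, -0.74 and -0.70 from the lower to the upper end. Below the interval the 96 chromosome 14 genes at that level had a median of 0.07, and beyond it the 56 genes had a median of -0.10. In JB1 the bin medians lay between -0.17 and 0.08 except in the first bin, where the 3 members gave 0.35.

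At the lower border, the nearest genes outside were Wapal, a gene of cohesin release, at -0.01 in E14, Gcap14 at -0.14 and Ghitm, which codes for a mitochondrial inner membrane protein, at 0.05. The first member inside at 5 RPM was Tspan14, a tetraspanin, at 8.08 RPM in wild-type E14 and 4.78 RPM in knockout E14, a difference of -0.65. It was followed by 5730469M10Rik at 0.25 and Gm9732 at 0.23, and then by Txndc16, a thioredoxin-domain protein, at -0.71 and Psmc6, an ATPase of the 19S proteasome cap, at -0.60. Members on both sides of zero thus lie between 41 and 45 Mb. In wild-type and knockout E14, 5730469M10Rik was at 3.09 and 3.85 RPM and Gm9732 at 0.634 and 0.919 RPM. Both were under 5 RPM there and passed the filter through JB1. The lower edge of the shift in E14 therefore cannot be placed closely from these genes.
At the upper border the last members inside were 1200011I18Rik (now Gpalpp1) at -0.70, Nufip1, an RNA-binding partner of the FMR protein, at -0.87 and Tsc22d1, a leucine zipper protein induced by TGF-beta, at -0.82. The nearest genes outside were 9030625A04Rik at -0.04, Enox1 at -0.12, Dnajc15, a mitochondrial co-chaperone, at 0.19, Akap11, an anchor of protein kinase A, at 0.10 and Dgkh, a diacylglycerol kinase, at -0.23. Here the step fell between Tsc22d1, which starts at position 76814768 (mm9), and 9030625A04Rik, which starts at 77424003.

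**Figure D2:**
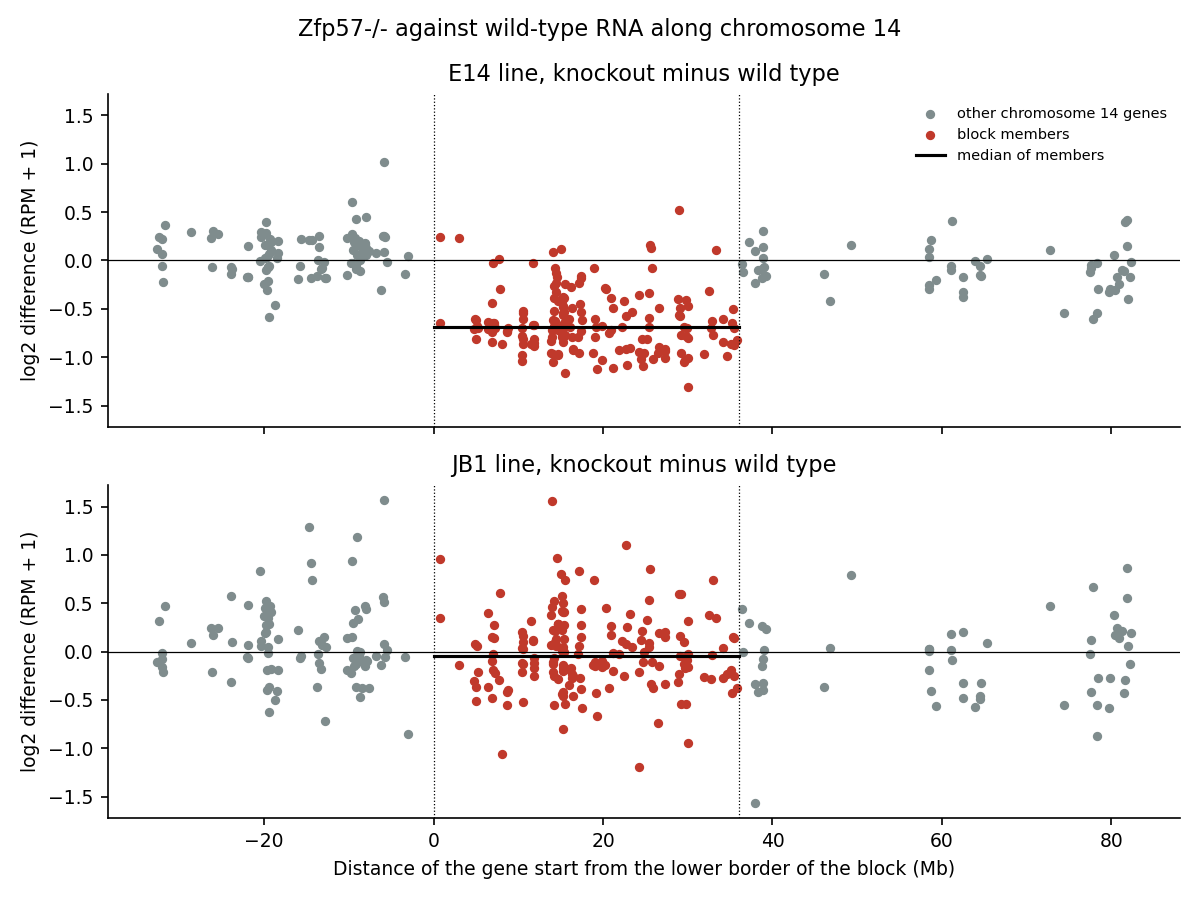
Knockout minus wild-type difference (vertical axis, log2 scale with 1 RPM added) against the distance of each gene's start from the lower border of the block in Mb (horizontal axis) for chromosome 14 genes with a mean of 5 RPM or more, in E14 (top) and JB1 (bottom). Red points are the 176 members, grey points the other genes of the chromosome without the genes set aside, dotted lines the borders and the black line the members' median, which is -0.69 in E14 and -0.04 in JB1.

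Members listed for RNA processing were, with few exceptions, lower in the E14 knockout by a ratio near that of the block. Of the 19 members listed for RNA processing and RNA modification, 18 reached 5 RPM and all 18 were lower in the E14 knockout, 13 at least 1.5-fold, with a median difference of -0.74. In JB1 13 of the 18 were lower and the median was -0.17. For this and the following lists, the shares of all 176 members were 94.9% lower in E14, 65.3% at least 1.5-fold lower in E14 and 54.5% lower in JB1. Of all genes, 47.7%, 2.38% and 51.7% met the same criteria. Parp2, an ADP-ribosyltransferase of DNA repair that was placed in this list, was at 35.1 RPM in wild-type E14, 17.4 in knockout E14, 66.7 in wild-type JB1 and 57.7 in knockout JB1. Apex1, an endonuclease for abasic DNA sites, and Naa30 were placed here too, so the list is not purely one of RNA processing.
Zc3h13 and Mettl3, both parts of the complex that writes N6-methyladenosine into mRNA, were at 39.0 and 20.4 RPM in wild-type E14 and at 19.2 and 10.5 RPM in the E14 knockout. In JB1 Zc3h13 was at 99.7 RPM in wild type and 85.0 in the knockout, and Mettl3 at 33.5 and 29.7 RPM. Both genes were therefore close to 0.5 of wild type in E14 and within a ratio of 0.85 to 0.89 in JB1. The lowest E14 difference in the list was that of Ttc5, a tetratricopeptide protein that takes part in the control of tubulin mRNA, at -1.04. Acin1, a protein associated with the exon junction complex, was nearer to wild type, at 105 RPM and 79.7 RPM in E14 and at 251 RPM and 211 RPM in JB1. The highest difference in the list was that of Hnrnpc, described below.

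Of the 28 members listed for chromatin and transcription, 18 passed, all 18 were lower in the E14 knockout and 16 at least 1.5-fold, with a median of -0.79. Their JB1 median was -0.06, with 11 of 18 lower. Supt16h, a subunit of the FACT histone chaperone, was at 298 RPM in wild-type E14 and 187 in knockout E14, and at 353 and 385 RPM in JB1. Prmt5, the main symmetric arginine methyltransferase, was at 76.8 and 38.9 RPM in E14 and at 176 and 206 RPM in JB1. Both genes were lower in the knockout library of E14 and higher in that of JB1. Chd8, a chromatin remodeller of the CHD family, was at 81.5 and 45.8 RPM in E14 and at 138 and 116 RPM in JB1. The lowest E14 difference of the list was Hmbox1, a homeobox protein that binds telomere repeats, at -1.02, and the highest was Sap18, a Sin3-associated protein, at -0.16.

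Of 20 members listed for cell division, replication and telomeres, 18 passed, all 18 were lower in the E14 knockout and 12 at least 1.5-fold, with a median of -0.68 and a JB1 median of 0.01. Cdca2, which recruits protein phosphatase 1 to chromosomes at the end of mitosis, was at 56.9 RPM in wild-type E14, 27.7 in knockout E14, 51.3 in wild-type JB1 and 57.2 in knockout JB1. Esco2, an acetyltransferase of sister chromatid cohesion, was at 105, 69.1, 94.4 and 100.2 RPM in the same order. The replication factor Wdhd1 was among the less shifted, at 53.2 and 39.0 RPM in E14 and at 71.5 and 79.5 RPM in JB1. These 3 genes all had their lowest value in the E14 knockout.

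Protein turnover and membrane traffic followed. Of 17 members listed for proteasome and ubiquitin, 14 passed, 13 were lower and 8 at least 1.5-fold lower in the E14 knockout, with a median of -0.62 and a JB1 median of -0.04. Psmc6, whose promoter is printed above, was at 102 RPM in wild-type E14, 66.6 in knockout E14, 158 in wild-type JB1 and 166 in knockout JB1. Psmb5, the chymotrypsin-like subunit of the 20S proteasome, was at 76.4, 53.0, 113 and 108 RPM. Both subunits had the E14 knockout as their lowest library. Of 25 members listed for membrane traffic and nuclear transport, 24 passed and all 24 were lower in the E14 knockout, 21 at least 1.5-fold, with a median of -0.72 and a JB1 median of -0.11. The nuclear export receptor Xpo7 was at 76.3 and 43.3 RPM in E14 and at 98.4 and 123 RPM in JB1, and Kpna3, an importin alpha, at 73.1 and 43.9 RPM in E14 and at 109 and 123 RPM in JB1. Mtmr6, a myotubularin phosphatase, had the lowest E14 difference of the list, -1.03, and Wdfy2, an endosomal protein, the highest, -0.42.

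The list for mitochondria and metabolism, at the main settings, had the smallest E14 median difference of lists with 5 or more measured members. Of its 27 members 20 passed, 17 were lower and 5 at least 1.5-fold lower in the E14 knockout, with a median of -0.50. In JB1 its median was 0.15, the highest of the lists, and 14 of the 20 were higher in the knockout. Of all 176 members 80 were higher there, and of all 9626 genes 4652. Ctsb, the lysosomal protease cathepsin B placed in this list, had the lowest E14 difference, -0.92. Pnp, purine nucleoside phosphorylase, was at 41.7 and 28.2 RPM in E14 and at 109 and 111 RPM in JB1. Pck2, mitochondrial phosphoenolpyruvate carboxykinase, was at 60.7 and 45.1 RPM in E14 and at 92.1 and 67.7 RPM in JB1, so its ratios of 0.743 and 0.734 were alike in both lines. The order of the lists depends on the processing. With 5 RPM added, the E14 median was -0.37 for this list and -0.27 for secreted ligands, receptors and matrix. At a mean of 1 RPM or more these medians were -0.45 and -0.30. Whether the lists differ from each other was not tested.

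Cytoskeleton and adhesion, secreted factors and transporters had fewer measured members. Of 19 members listed for cytoskeleton and adhesion, 9 passed and all 9 were at least 1.5-fold lower in the E14 knockout, with a median of -0.77 and a JB1 median of -0.27. Dock5, a guanine nucleotide exchange factor for Rac, was at 26.9 and 13.6 RPM in E14 and at 89.9 and 104 RPM in JB1. Of 29 members listed as secreted ligands, receptors and matrix, 10 passed, 8 were lower and 5 at least 1.5-fold lower in the E14 knockout. Their E14 differences ran from -1.16 to 0.52 around a median of -0.54, the widest range of the lists. The lowest was that of Nynrin, which was placed in this list although its named domains are ribonuclease-like and integrase domains. The tyrosine kinase gene Ptk2b was placed in this list too. Fzd3, a Wnt receptor, was at 7.90 and 3.58 RPM in E14 and at 7.30 and 7.25 RPM in JB1. The secreted growth factor Fgf17 was low in E14, at 1.23 and 0.608 RPM, and higher in JB1, at 12.5 and 11.1 RPM. Of 7 solute carriers 4 passed, with a median of -0.56 in E14 and 0.02 in JB1. Slc39a14, a zinc and iron importer, was at 59.7 RPM in wild-type E14, 28.7 in knockout E14, 127 in wild-type JB1 and 112 in knockout JB1. Of 33 genes listed as restricted to other tissues, 1 passed, the transglutaminase gene Tgm1, at 38.6 and 27.6 RPM in E14 and at 87.9 and 63.6 RPM in JB1.

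**Figure D3:**
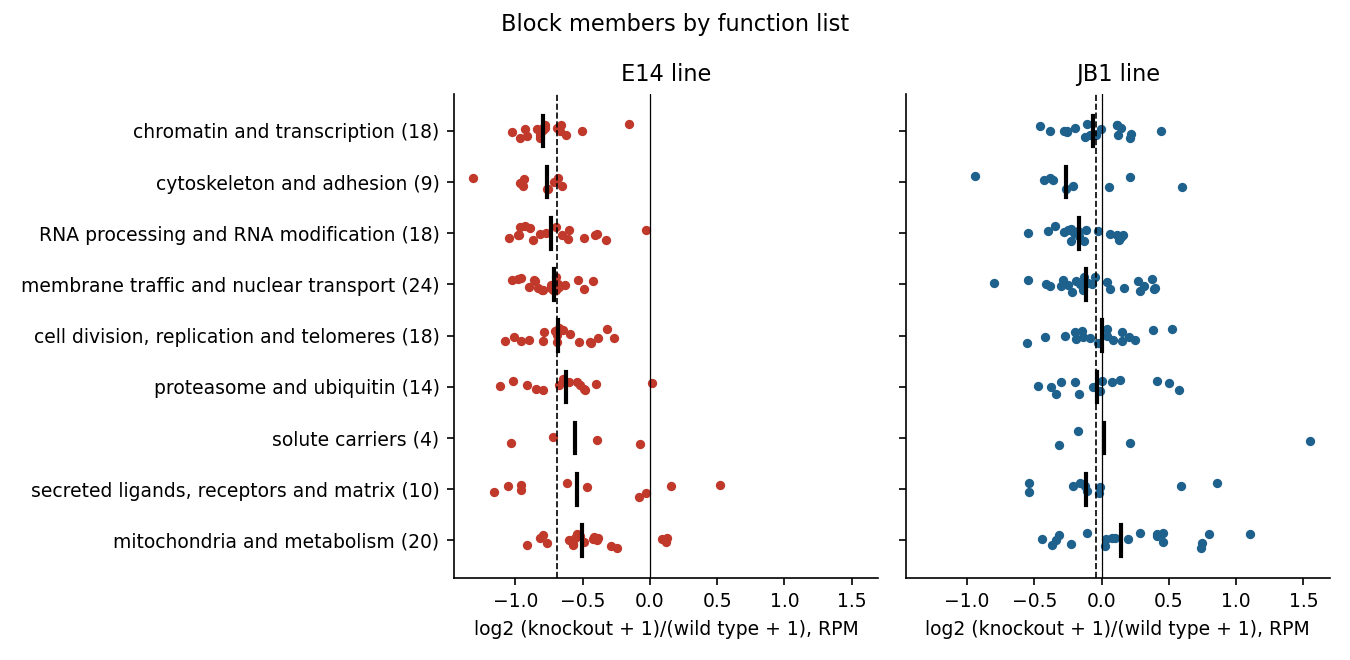
Knockout minus wild-type difference (horizontal axis, log2 scale with 1 RPM added) of each measured member by function list (rows, with the number measured), in E14 (left, red) and JB1 (right, blue). Black bars are list medians, the dashed line is the median of all 176 members, and points are spread vertically only for legibility. List medians lie between -0.79 and -0.50 in E14 and between -0.27 and 0.15 in JB1.

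Among the 8 members with the highest mean level, 6 lay near the shared ratio in E14 or between it and wild type. Tpt1, the abundant translationally controlled tumour protein gene, was at 715 RPM in wild-type E14, 455 in knockout E14, 1591 in wild-type JB1 and 1183 in knockout JB1. It was lower in both knockouts, with ratios of 0.637 and 0.744, but 6 annotated pseudogenes carry its name, so its reads may be split among copies. Tsc22d1 was at 109 and 61.5 RPM in E14 and at 315 and 242 RPM in JB1. Mapk1ip1l was at 155 and 92.7 RPM in E14 and at 212 and 198 RPM in JB1. Apex1, the main endonuclease for abasic DNA sites, was at 122 and 79.8 RPM in E14 and at 183 and 167 RPM in JB1, though it overlaps Tmem55b. The exceptions were Hnrnpc and Jub, which stood apart from the shared ratio.

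The members nearest the E14 median were Ccnb1ip1, a meiotic crossover factor, Cenpj, a centriole protein, Cdadc1, Ints6, an Integrator subunit, and Ccdc25. Ints6 was at 59.7 and 36.6 RPM in E14 and at 47.5 and 51.5 RPM in JB1, so it was lower in the knockout of the first line and slightly higher in that of the second. Ccdc25 was at 24.3 and 14.6 RPM in E14 and at 47.9 and 49.6 RPM in JB1. These genes describe the typical member, with an E14 ratio near 0.6 and a JB1 ratio near 1.

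Counting error set how finely single members could be told from the shared ratio. The median distance from a member's log2 ratio to the edge of its 95% counting interval was 0.14 in E14 and 0.08 in JB1. In E14 the interval lay wholly below a ratio of 1 for 160 of 176 members, held 1 for 13 and lay wholly above 1 for 3. It held a ratio of 0.5 for 55 members and lay wholly below 0.5 for 8. It held the block's median for 69 members, and the others differed from that median by more than counting error. Without replicates the spread between cultures is not known.

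A member was called above the shared shift where the whole counting interval of its E14 log2 ratio lay above 0.5 times the block's median difference, a limit of -0.35. This held for 15 of the 176 members, and for 81.7% of all genes at that level. These 15 were close to wild type in the E14 knockout, with a median difference of 0.09. In JB1 their median was 0.11, and 8 of 15 were higher in the knockout, beside 80 of the 176 members and 4652 of all 9626 genes. Of the 15, 9 had a mean under 20 RPM, and with the minimum raised to 20 RPM the count was 7. With the point value in place of the interval it was 29.

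Hnrnpc (chr14:52693055-52723703, mm9, minus strand), which packages nascent pre-mRNA, was the member with the most reads in this group. It was at 333 RPM in wild-type E14 and 327 in knockout E14, a ratio of 0.981 (0.962 to 1.00), and at 537 and 581 RPM in JB1, a ratio of 1.08. The nearest members at 5 RPM on either side, Mettl17 and Supt16h, had E14 ratios of 0.499 and 0.627. Between Mettl17 and Hnrnpc lies Zfp219, which was set aside by its symbol, and its E14 ratio of 1.15 (1.04 to 1.26) was not lowered either.
Sap18 (chr14:58417017-58423817) was at 49.8 and 44.5 RPM in E14 and at 70.4 and 95.9 RPM in JB1. Jub (now Ajuba, chr14:55186309-55196253), a LIM-domain protein of cell junctions, was at 92.2 and 76.7 RPM in E14 and at 211 and 144 RPM in JB1, so its ratio was lower in JB1 (0.680) than in E14 (0.831). Ephx2, soluble epoxide hydrolase, was at 28.0 and 30.6 RPM in E14 and at 32.2 and 25.3 RPM in JB1. Lgals3, the sugar-binding protein galectin-3, was at 18.7 and 18.3 RPM in E14 and at 6.40 and 6.29 RPM in JB1, with hardly any difference in either line.

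Loxl2 (chr14:70008978-70095640), a secreted lysyl oxidase that crosslinks collagen, had the highest E14 difference of all members, 0.52. It was at 7.13 RPM in wild-type E14, 10.7 in knockout E14, 11.3 in wild-type JB1 and 17.5 in knockout JB1. Its ratios were 1.5 (1.32 to 1.70) in E14 and 1.55 (1.42 to 1.69) in JB1, higher in the knockout in both lines. Clu, the secreted chaperone clusterin, was at 2.54 and 2.94 RPM in E14 and at 7.89 and 15.1 RPM in JB1. Dhrs4, a short-chain dehydrogenase, was at 3.01 and 3.37 RPM in E14 and at 7.20 and 13.3 RPM in JB1. By counting error Clu and Dhrs4 were higher in the JB1 knockout (ratios of 1.91 and 1.85), while their E14 intervals held 1. Both were under 5 RPM in each E14 library and passed the filter through JB1, with the knockout their highest library. The filter thus favoured their high JB1 knockout values.
The other members above the shift were 5730469M10Rik and Gm9732, named at the lower border, Mrpl52, a mitochondrial ribosomal protein (0.09), Peli2, a ubiquitin ligase (0.02), D14Ertd668e (now Phf11d, -0.07), Ptk2b, the tyrosine kinase Pyk2 (-0.08), and Gm6984 (0.10). Gm6984 has the current symbol Cbx3-ps6, a pseudogene name, so its reads may come from another copy. Gm9732 was at 0.634 and 0.919 RPM in E14, where its interval held 1, and passed the filter through JB1, at 14.6 and 13.1 RPM. The interval of Peli2 also held 1, and with rescaled or TMM values 168 in place of 167 members were lower in the E14 knockout. 5730469M10Rik and Peli2 were likewise under 5 RPM in each E14 library and passed the filter through JB1. 5730469M10Rik was at 3.09 and 3.85 RPM in E14 and at 10.4 and 13.5 RPM in JB1. Peli2 was at 25.3 and 20.4 RPM in JB1. It overlaps Gm6498, which was at 31.7 and 25.6 RPM in E14, so reads of Peli2 may be shared with that gene.

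A member was called below the shared shift where its whole interval lay below 1.5 times the block's median, a limit of -1.04. This held for 6 of 176 members and for 0.156% of all genes at that level. In JB1 5 of the 6 were also lower in the knockout, with a median of -0.38, beside 54.5% of the 176 members and 51.7% of all genes. This group depends on the processing, since its limit follows the block's median while the intervals hold no added RPM. Only Epb4.9 and Nynrin remained when the block median was taken from ratios without an added RPM, and 3 members were called with rescaled or TMM values. The count was larger with 5 RPM added (41), at a mean of 1 RPM or more (24) and without a filter (109).

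Epb4.9 (now Dmtn, chr14:71001070-71035785), which codes for the actin-bundling protein dematin, had the lowest difference of all members, -1.31 in E14. It was at 22.5 RPM in wild-type E14, 8.46 in knockout E14, 45.1 in wild-type JB1 and 23.0 in knockout JB1. Its ratios were 0.376 (0.340 to 0.416) in E14 and 0.509 (0.482 to 0.538) in JB1, so it was lower in both knockouts. Its neighbours at a mean of 5 RPM, Fam160b2 and Fgf17, had E14 ratios of 0.414 and 0.495 and JB1 ratios of 0.980 and 0.886. Fgf17 was low in E14, as given above, and passed the filter through JB1, so its E14 ratio rests on few reads.
Nynrin (chr14:56472873-56493572), named for its NYN ribonuclease-like domain and a retrovirus-derived integrase domain, was at 17.5 RPM in wild-type E14, 7.26 in knockout E14, 140 in wild-type JB1 and 95.6 in knockout JB1. Shisa2 (chr14:60244118-60250495), which holds back Wnt and FGF receptors in the endoplasmic reticulum, was at 12.1, 5.01, 20.7 and 12.6 RPM in that order. Both genes were lower in the knockout of each line, with JB1 ratios of 0.685 and 0.611.
The other 3 members below the shift were nearer to wild type in JB1. Trim13, a ubiquitin ligase of the endoplasmic reticulum, was at 40.2 and 18.0 RPM in E14 and at 38.3 and 33.2 RPM in JB1. Neil2, a DNA glycosylase of base excision repair, was at 8.78 and 3.64 RPM in E14 and at 13.9 and 16.7 RPM in JB1. Mmp14, a membrane-bound matrix metalloproteinase, was at 6.36 and 2.55 RPM in E14 and at 7.95 and 6.72 RPM in JB1. Of these 3 only Neil2 was higher in the JB1 knockout. The remaining members among the 10 lowest E14 differences were Extl3, a glycosyltransferase of heparan sulfate (-1.09), 2610301G19Rik (now Ccar2, -1.05), Ttc5 and Slc39a14 (-1.03), whose intervals reached past the limit.

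**Figure D4:**
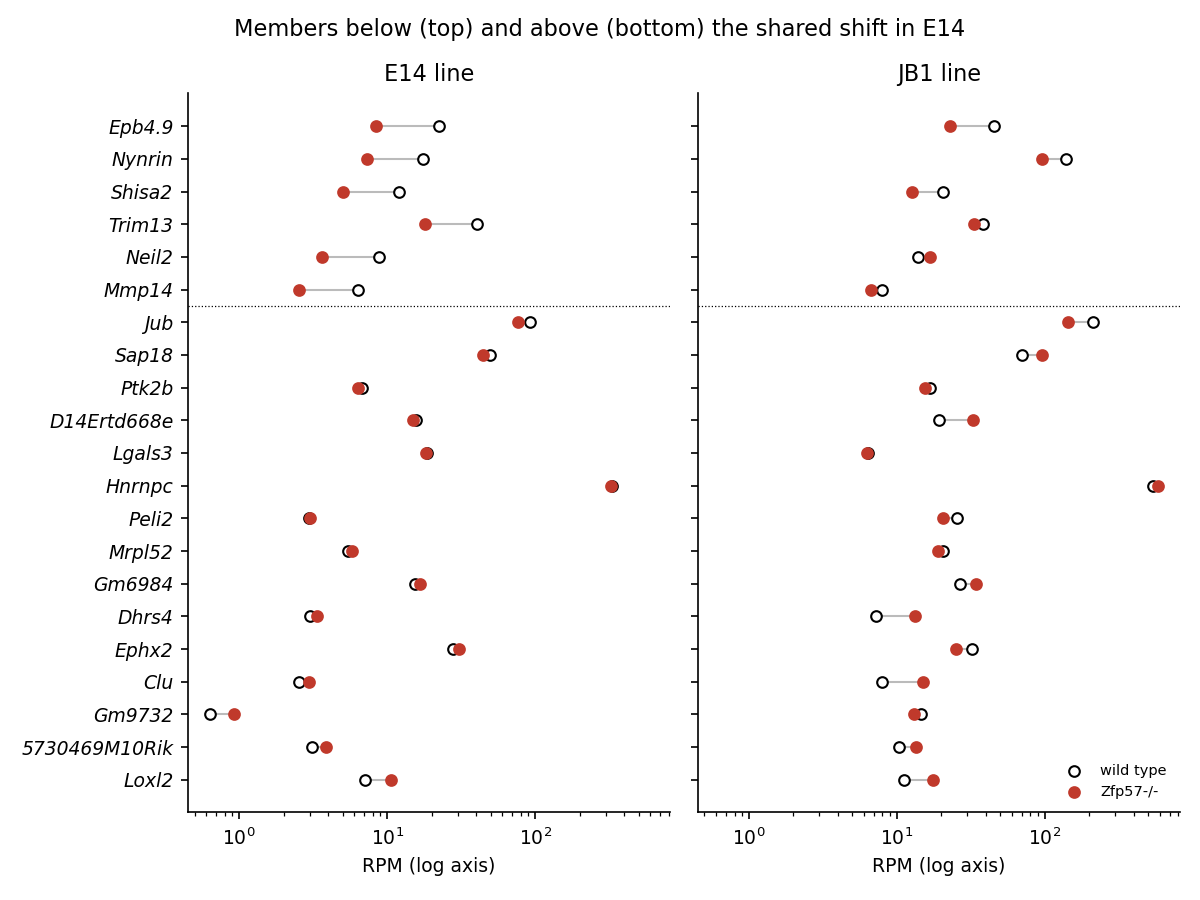
RPM (horizontal log axis) of the 6 members below (top) and the 15 members above (bottom) the shared E14 shift, in wild type (open circles) and Zfp57-/- (red) of E14 (left) and JB1 (right), 1 library per circle. The circles of Hnrnpc and Lgals3 nearly coincide in E14, while Epb4.9 goes from 22.5 to 8.46 RPM.

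Some members differed in JB1 although the members' median difference was only -0.04. The highest JB1 difference was that of Slc7a7, the light chain of a transporter for cationic amino acids, at 18.8 RPM in wild type and 57.1 in the knockout, a ratio of 3.04 (2.86 to 3.23). In E14 it was at 24.98 and 14.7 RPM. Fdft1, squalene synthase of the sterol pathway, was at 23.0 and 50.7 RPM in JB1, a ratio of 2.20, and at 23.3 and 15.4 RPM in E14. Both genes were lower in the knockout of E14 and higher in that of JB1, though Slc7a7 overlaps Oxa1l and Fdft1 overlaps Ctsb.
Efs, an adaptor protein of Src-family signalling, was at 7.63 and 15.9 RPM in JB1 and at 2.40 and 2.02 RPM in E14. Like Clu and Dhrs4, it passed the 5 RPM filter through JB1, with the knockout its highest library. Tspan14 was at 12.01 and 24.3 RPM in JB1. The other members among the 8 highest were Clu (0.86), N6amt2, now Eef1akmt1 (0.84), Dhrs4 (0.80) and Sucla2, a subunit of succinyl-CoA synthetase (0.74). The E14 differences of these 8 ran from -0.77 for Sucla2 to 0.16 for Clu.

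The lowest JB1 difference was that of A930011O12Rik (now Mir124a-1hg, a microRNA host transcript), at 19.2 RPM in wild type and 7.80 in the knockout, a ratio of 0.407 (0.372 to 0.446). In E14 it was at 2.91 and 2.05 RPM, so it passed the 5 RPM filter through JB1, with wild type its highest library. 6720456H20Rik (now Tmem260) was at 11.5 and 5.00 RPM in JB1 and at 5.49 and 2.56 RPM in E14, with ratios of 0.436 and 0.467. Rabggta, a subunit of the enzyme that attaches lipid anchors to Rab proteins, was at 74.6 and 42.5 RPM in JB1 and at 39.4 and 23.9 RPM in E14, with ratios of 0.569 and 0.606. For 6720456H20Rik and Rabggta the counting intervals of the E14 and JB1 ratios overlapped, while A930011O12Rik had an E14 ratio of 0.704 (0.556 to 0.892), nearer to wild type than its JB1 ratio. The others among the 8 lowest were Pnma2 (-0.74), Shisa2 (-0.67), Efha1, now Micu2, a regulator of mitochondrial calcium uptake (-0.58), and Jub (-0.55).

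Over the 176 members the E14 and JB1 differences had a Pearson correlation of 0.29 and a Spearman correlation of 0.24, as a description over genes that are not independent replicates. Over the other 9450 genes the values were 0.18 and 0.23. When members were ordered by their JB1 difference, the 59 lowest had an E14 median of -0.71, the 58 in the middle -0.68 and the 59 highest -0.63. Of the 6 members below the E14 shift, 5 were among the 59 lowest in JB1 and 1 among the 59 highest. Of the 15 above it, 7 were among the 59 highest in JB1, 5 in the middle and 3 among the 59 lowest. The E14 median moved little with the JB1 difference.

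**Figure D5:**
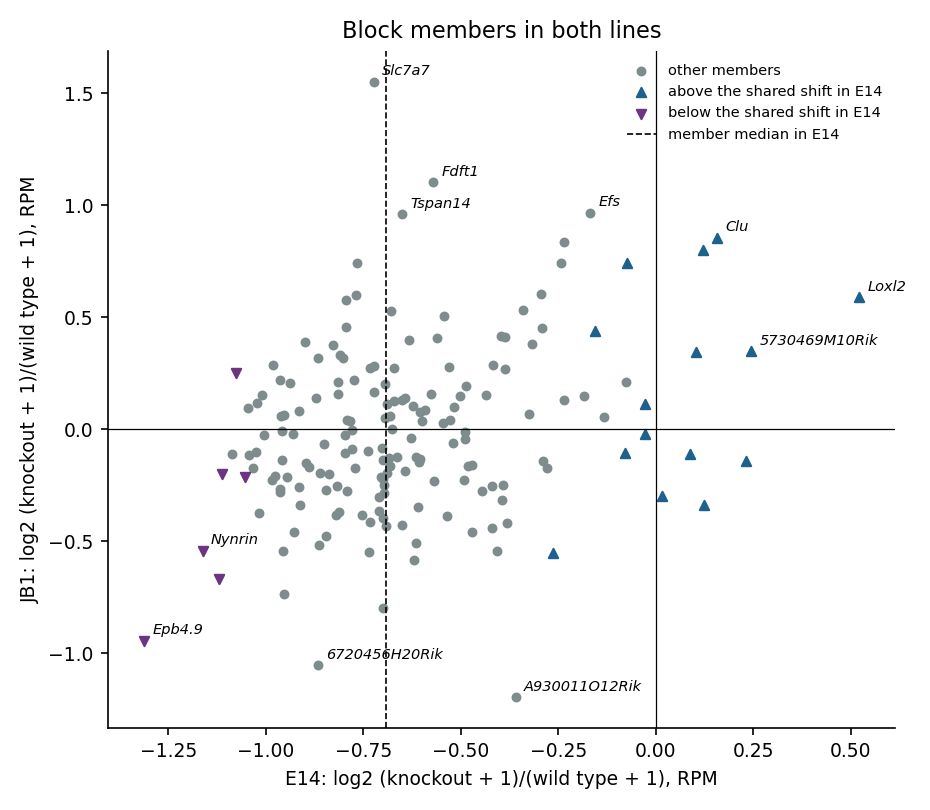
E14 difference (horizontal axis) against JB1 difference (vertical axis) of the 176 members, each knockout minus wild type on the log2 scale with 1 RPM added. Triangles mark members above (blue) and below (purple) the shared E14 shift, and the dashed line is the E14 median of -0.69. Slc7a7 lies at -0.72 and 1.55, Loxl2 at 0.52 and 0.59, and Epb4.9 at -1.31 and -0.94.

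Setting the lines side by side also places the wild-type libraries, with the limit that the tables of E14 and JB1 were scaled separately and differ in the share of reads in listed genes. From E14 wild type to JB1 wild type the members had a median difference of 0.73 and the other genes 0.47, so members were 0.27 higher than other genes in JB1, and 128 of 176 exceeded the other genes' median. From the E14 knockout to JB1 wild type the members' median was 1.41 against 0.44 for other genes, a gap of 0.96, and 167 of 176 exceeded that median. Relative to other genes, E14 wild type thus lay below JB1 wild type in the members as well, by less than the E14 knockout did.

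The E14 ratio was nearest to wild type among the members with the fewest reads. The 99 members with a mean of at least 20 RPM had a median ratio of 0.596, and the 77 between 5 and 20 RPM had 0.615. The 2956 other genes between 1 and 5 RPM had a median ratio of 1.07, with 1215 lower. The 62 members at that level had a median ratio of 0.702, with 51 of 62 lower. In this low group Dleu2, a long noncoding RNA gene, was at 7.65 and 4.14 RPM in E14 and at 1.23 and 0.990 RPM in JB1, and Ndrg2 at 2.87 and 1.46 RPM in E14 and at 2.47 and 7.68 RPM in JB1. These 2 genes were chosen for mention after their values were seen. Summed over all 362 members under 5 RPM, the E14 level was 132 RPM in wild type and 93.7 in the knockout, and the JB1 level was 254 and 292 RPM.

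The receptor, protease, ribonuclease and defensin clusters of the interval had few or no reads in all 4 libraries. The 124 predicted genes with Gm numbers summed to 91.6 and 79.4 RPM in wild-type and knockout E14 and to 237 and 272 RPM in JB1. Of these 124, 4 reached 5 RPM and 51 had no reads, beside 5695 without reads among all 26130 listed genes. Of 37 olfactory receptor genes 36 had no reads in any library, and so had 11 of 15 mast cell protease and granzyme genes, 14 of 20 secreted ribonuclease genes, 2 of 5 beta-defensin genes and 2 of 4 vomeronasal receptor genes. With 3 reads as the upper limit behind a count of 0, such a gene may have been at up to 0.0594 RPM in wild-type E14 and 0.0309 RPM in knockout JB1. The secreted ribonucleases together reached 4.83 and 2.80 RPM in E14 and at 3.74 and 1.95 RPM in JB1, mostly from Rnase4 (4.42, 2.40, 2.69 and 0.938 RPM). The ratio of their sums was 0.579 (0.478 to 0.702) in E14 and 0.521 (0.429 to 0.630) in JB1, lower in the knockout of both lines.

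Some properties of the members bear on how finely single ratios can be read. Of the 176 members 62 overlap another listed gene, and the strand setting of the counting is not given, so reads of overlapping genes may be shared. The 114 without an overlap had medians of -0.69 in E14 and -0.07 in JB1, close to those of all 176. Across members the E14 difference had a Spearman correlation of -0.25 with transcript length (175 members), and the JB1 difference -0.39. Across other genes these values were -0.28 and -0.23. The correlation of the E14 difference was -0.19 with the mean level, 0.07 with transcript GC content and -0.13 with position. The 15 members above the shift had a median transcript length of 2351 bases (14 with a matched transcript), the 6 below it 3179 bases and the other 155 members 3396 bases. The part of transcript length in these differences was not tested.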

How the data were processed

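Sequencing covered 4 libraries of mouse embryonic stem cell RNA, 1 per line and genotype, made with a stranded poly(A) kit per the labels' protocols. The authors used TopHat2 2.0.8b, cutadapt and CASAVA 1.8.2 with mm9, per the submitters' processing notes. Annotation, counting tool, strand setting and scaling total were not given in the sources used here. Both deposited tables, 1 per line and scaled separately, hold log2 values of RPM, with a gene without reads written as 0.9 of a read. Whole reads were recovered for 100% of the values above that floor, within a relative tolerance of 0.0001. No column of the tables lacked a sample.

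From these, RPM, differences of log2(RPM + 1) and ratios of RPM were computed with Python 3.11.15, numpy 2.4.6, pandas 2.3.3 and scipy 1.17.1, and figures were drawn with matplotlib 3.10.9. Genes with a mean of 5 RPM or more over the 4 libraries were described. Ratios carry 95% intervals from the exact binomial (Clopper-Pearson) method conditional on the total of recovered reads, which are not independent molecules. They cover counting error only. The interval code was tested on simulated data. With 1 library per group, no p-value was computed. The added 1 RPM makes the differences of low genes smaller.

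Groups came from the sample titles. The members, the function lists and the marker lists were chosen with earlier results of these data known. Genes were named by rule. The rule took the 10 lowest and 10 highest E14 differences, the 8 highest means, the 5 nearest the E14 median, the 8 lowest and 8 highest JB1 differences, the 3 nearest genes at each border and all members outside the shared shift. It also took the highest mean and both extremes of each function list. A few further list members were given as examples of their lists and were chosen after their values were seen, as were the border genes beyond the third and the neighbours of Hnrnpc and Epb4.9. Current symbols and transcript lengths came from the GENCODE M21 annotation and RefSeq tables, and promoter sequences from RefSeq on GRCm38.p6. Gene positions are those of the deposited tables (mm9), without exon, intron or UTR positions. Alternatives were another added RPM, other filters, rescaled and TMM values (computed by own code), other borders, the mean in place of the median and the members with the 17 genes set aside.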

Additional observations from a re-analysis of the deposited data

Results flagged for a closer look

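In 4 members the knockout differed from wild type by at least 1.5-fold in both lines, but in opposite directions, lower in E14 and higher in JB1. With 1 library per group, the difference between the lines was not tested, and the E14 direction is the one by which the interval was chosen. In E14, 115 of the 176 members were at least 1.5-fold lower. In JB1, 13 members (7.39%) were at least 1.5-fold higher, beside 7.61% of all genes. The share of all genes with such opposite differences was not computed, so the count of 4 is a list and not a result about the members. The JB1 minus E14 gap on the log2 scale was 2.28 for Slc7a7, an amino acid transporter subunit, 1.61 for the tetraspanin Tspan14, 1.51 for Sucla2, a subunit of succinyl-CoA synthetase and 1.37 for Rhobtb2. Rhobtb2 was at 13.0 and 7.23 RPM in E14 and at 17.5 and 27.0 RPM in JB1. Sucla2 was at 31.4 and 18.1 RPM in E14 and at 35.9 and 60.8 RPM in JB1. Slc7a7 overlaps Oxa1l, while Tspan14 and Rhobtb2 overlap no listed gene.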

How the results depend on the processing

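Of 134 values computed under 14 other settings, 102 stayed within their tolerance and 32 moved. The E14 median was -0.53 with 5 RPM added and -0.40 without a filter, and otherwise stayed between these and -0.74. The JB1 median lay between -0.10 and 0.01 and was above 0 only without a filter. Members at least 1.5-fold lower in E14 numbered 74 with 5 RPM added and 75 at a mean of at least 20 RPM. Members lower in E14 numbered 97 at 20 RPM and 277 without a filter. In JB1, at least 1.5-fold higher were 8 members with 5 RPM added, 22 at 1 RPM, 5 at 20 RPM and 22 without a filter. At least 1.5-fold lower were 2 at 20 RPM, 10 without a filter and 12 with TMM factors. The E14 knockout lay below JB1 wild type, relative to other genes, by a log2 difference of -0.76 with 5 RPM added and -0.59 without a filter. Members above the E14 shift numbered 7 at 20 RPM and 29 by point value. Members below it numbered 3 with 0.5 RPM added, 41 with 5 RPM added, 24 at 1 RPM, 2 at 20 RPM, 109 without a filter, 3 with rescaled values, 3 with TMM factors and 2 with ratios without an added RPM, an alternative chosen after seeing the data. Other filters change the number of genes examined by construction. The limits for members above and below the shift follow the block's median, while the counting intervals hold no added RPM. Counts of such members thus move by construction where the added RPM or the filter changes that median. The cause of the other moves was not tested. No paired analysis was possible because, within a line, each group was 1 library and the labels carry no replicate numbers, and no library could be left out for the same reason. A fit over both lines with line as a block was not run, since the E14 values chose the members.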
